A study of Saccharomyces cerevisiae and Saccharomyces cerevisiae x Saccharomyces paradoxus with 20 samples.

Results

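A set of 10 enzyme genes of the ergosterol pathway of yeast was followed through RNA-Seq and FAIRE-Seq data of Saccharomyces cerevisiae, S. paradoxus and their hybrids. The genes were chosen by name and systematic identifier. In pathway order they were ERG13 (YML126C), HMG1 (YML075C), ERG9 (YHR190W), ERG1 (YGR175C), ERG7 (YHR072W), ERG11 (YHR007C), ERG6 (YML008C), ERG2 (YMR202W), ERG3 (YLR056W) and ERG5 (YMR015C), and 10 of 10 were among the 4995 genes of the RNA tables of the UWOPS05_217_3 cross. In FAIRE (Formaldehyde-Assisted Isolation of Regulatory Elements) cells are crosslinked and sheared, and phenol extraction leaves DNA without nucleosomes in the aqueous phase, where it is sequenced. Of the 3498 nucleosome-free regions (NFRs) measured by FAIRE, 9 overlapped the 300 bp upstream of the start codon of 9 of the genes. ERG1 had none.

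The haploid strains were UWOPS05_217_3 and DBVPG1373, a wild isolate and a wine strain of S. cerevisiae, and the S. paradoxus strain CBS432. The diploid hybrids were UWOPS05_217_3-CBS432 and DBVPG1373-CBS432. For each assay there were 2 biological replicates of every strain and hybrid (20 samples), from mid-log cultures in rich medium (YEPD). S. cerevisiae was represented by 2 strains and S. paradoxus by 1, so a difference from CBS432 cannot be told apart as one of species or of strain. The sample labels list CBS432 under S. cerevisiae although the design text gives S. paradoxus. RNA was used for the UWOPS05_217_3 cross only.

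Ergosterol is the main sterol of fungal membranes. Its synthesis starts with the mevalonate steps, runs through squalene to lanosterol, and ends with a series of changes to the sterol ring and side chain. Fluconazole and related azoles block the lanosterol demethylase Erg11, and terbinafine blocks the squalene epoxidase Erg1. In S. cerevisiae the zinc cluster factors Upc2 and Ecm22 activate many genes of the pathway when sterols run low. In a hybrid both alleles of a gene share one nucleus, so an unequal count of the alleles is a cis effect, whereas a parental ratio that differs from the allele ratio is a trans effect. The question here was whether cis effects ran in 1 direction along the pathway.

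A haploid RNA library held 51389633 to 106845771 counts, and one allele of a hybrid RNA library 36188856 to 54971715. FAIRE libraries were shallower, with 2561228 to 4198250 counts per haploid library and 1339393 to 2036883 per hybrid allele, and their ratios carried larger errors. Of 8 listed genes that are expressed in haploid yeast and turned down or off in diploids, 5 were in the RNA tables. All 5 were lower in both hybrid libraries than in every haploid library, with hybrid levels between 0.00226 (FUS3) and 0.38 (STE12) of the haploid level. The ploidy labels held in this check. Levels are given as CPM, the counts per 1000000 counts of a haploid library or of both alleles together in a hybrid library. The counts were summed over sites whose number per gene is not given, so levels were compared between samples and not between genes.

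In the haploid parents, ERG13, ERG1 and ERG11 were lower in UWOPS05_217_3 than in CBS432, and ERG9 was higher. The other 6 genes did not pass the test. These 4 of 10 genes stand beside 54.6% of all 4995 genes that passed in this comparison, by edgeR's quasi-likelihood test with an adjusted p under 0.05. The median log2 ratio of UWOPS05_217_3 over CBS432 was 0.14 over the 10 genes and 0.01 over all genes.

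ERG11, the lanosterol demethylase, had 901 and 1058 CPM in UWOPS05_217_3, against 1343 and 1568 CPM in CBS432. The log2 ratio was -0.59 ± 0.14 (SE, n = 2 each; edgeR adjusted p = 0.00706). ERG13, the HMG-CoA synthase of the mevalonate stage, had 613 and 642 CPM in UWOPS05_217_3, against 877 and 802 CPM in CBS432. Its log2 ratio was -0.44 ± 0.10 (edgeR adjusted p = 0.0073). ERG1, the squalene epoxidase, had 630.3 and 651 CPM in UWOPS05_217_3, against 764 and 859 CPM in CBS432. Its log2 ratio was -0.36 ± 0.11 (edgeR adjusted p = 0.0228). ERG9, the squalene synthase, went the other way, with 667 and 693 CPM in UWOPS05_217_3, against 581 and 538 CPM in CBS432. The log2 ratio was 0.27 ± 0.10 (edgeR adjusted p = 0.0469). Leaving out 1 library at a time gave between 2 and 5 genes that passed. ERG9 lost its call without UWOPS05_217_3 replicate 2 or either CBS432 replicate (edgeR adjusted p between 0.107 and 0.283), ERG1 without UWOPS05_217_3 replicate 1 (0.0586) or CBS432 replicate 2 (0.203), and ERG13 without CBS432 replicate 1 (0.0581). Without UWOPS05_217_3 replicate 1, ERG2 and ERG3 also passed, with log2 ratios of 0.40 (edgeR adjusted p = 0.0127 and 0.0453).

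HMG1, one of the HMG-CoA reductases and the gene of the main regulated step of the mevalonate stage, had 966 and 1043 CPM in UWOPS05_217_3, against 827 and 869 CPM in CBS432. Its log2 ratio of 0.23 ± 0.11 did not pass (edgeR adjusted p = 0.102). ERG7, the lanosterol synthase, had 454 and 436 CPM in UWOPS05_217_3, against 403 and 394 CPM in CBS432. Its log2 ratio was 0.14 (edgeR adjusted p = 0.203). The 4 late genes ERG6, ERG2, ERG3 and ERG5 had log2 ratios between -0.09 and 0.21, none of which passed. ERG2 had 579 and 747 CPM in UWOPS05_217_3, against 556 and 575 CPM in CBS432, and ERG5 had 660 and 713 CPM, against 617 and 617 CPM. ERG6 had 488 and 607 CPM in UWOPS05_217_3, on either side of the 571 and 581 CPM in CBS432. ERG3, the C-5 sterol desaturase, had 829 and 1093 CPM in UWOPS05_217_3, against 738 and 908 CPM in CBS432. These values overlapped between the strains.

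**Figure D1:**
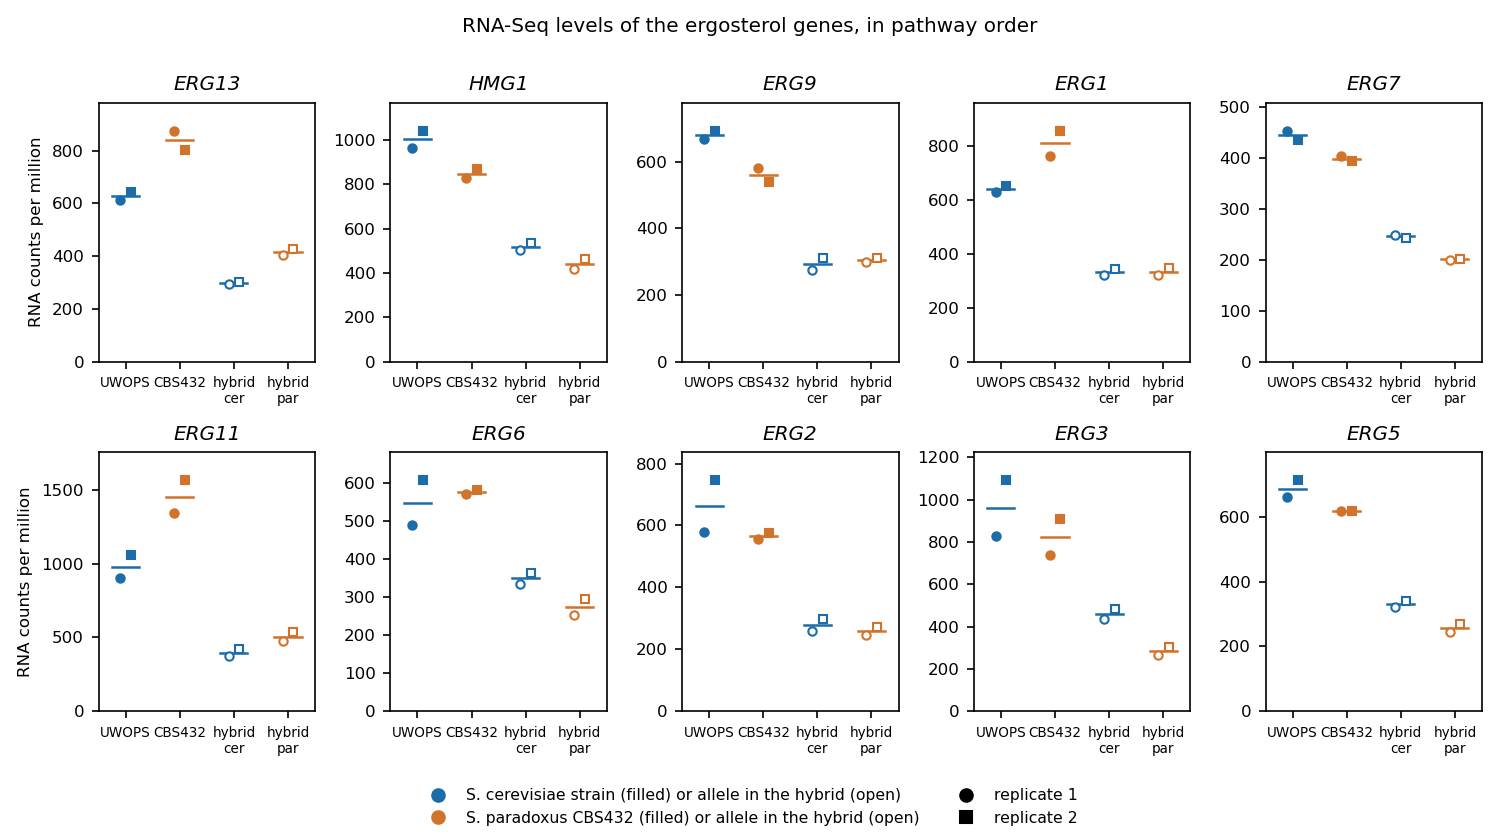
RNA levels (CPM) of the 10 genes in pathway order, for UWOPS05_217_3 and CBS432 haploids (filled) and for the S. cerevisiae (cer) and S. paradoxus (par) alleles of their hybrid (open). Points are replicates and lines are means. ERG13 and ERG11 were lower for S. cerevisiae in parents and hybrid, whereas ERG3 overlapped between the parents and was separated in the hybrid.

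Within the hybrid, cis effects did not run in 1 direction along the pathway. The S. cerevisiae allele was the higher one at 6 genes (HMG1, ERG7, ERG6, ERG2, ERG3 and ERG5) and the lower one at 2 (ERG13 and ERG11), and ERG9 and ERG1 did not pass. The 4 enzymes that act last among the 10 were all on the higher side, but the call of ERG2 was lost in DESeq2. Other genes of the pathway went both ways, as given below. In this comparison 68.6% of all genes passed by edgeR's quasi-likelihood test, 31.8% with the S. cerevisiae allele higher and 36.7% with it lower. The members' 8 of 10 therefore stand beside a background in which most genes passed. The median log2 ratio of the S. cerevisiae over the S. paradoxus allele was 0.17 over the 10 genes and -0.03 over all genes.

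ERG3 had the largest ratio of the 10. Counts of its S. cerevisiae allele were 47608 and 35072, against 29290 and 22040 counts of the S. paradoxus allele, so that the S. cerevisiae allele held 61.9% and 61.4% of the gene's counts. The log2 ratio was 0.69 ± 0.03, or 1.61-fold (SE, n = 2 libraries; edgeR adjusted p = 1.78e-45). With 2 libraries the spread was drawn largely from all genes, so the size of these cis p-values does not measure replication at a gene. Without the hybrid library as a block, ERG3 had 0.68 ± 0.08 (edgeR adjusted p = 0.000389), and 7 of the 10 genes passed. ERG6, which adds a methyl group to the sterol side chain, had 36595 and 26382 S. cerevisiae counts, against 27723 and 21468 S. paradoxus counts. Its S. cerevisiae share was 56.9% and 55.1%, with a log2 ratio of 0.35 ± 0.03 (edgeR adjusted p = 7.77e-18). ERG5, the C-22 sterol desaturase, was close to it, with 35269 and 24622 S. cerevisiae counts, against 26875 and 19640. The share was 56.8% and 55.6%, and the log2 ratio was 0.36 ± 0.04 (edgeR adjusted p = 3.56e-18). ERG2, the C-8 sterol isomerase, had the smallest ratio that passed. Its S. cerevisiae allele had 28399 and 21667 counts, against 26941 and 19796 counts of the S. paradoxus allele, a log2 ratio of 0.10 ± 0.04 (edgeR adjusted p = 0.00812). It did not pass in DESeq2 (adjusted p = 0.0516) or in edgeR without the hybrid library as a block (adjusted p = 0.329).

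Earlier in the pathway the directions were mixed. ERG13 had 32267 and 22096 S. cerevisiae counts, against 44480 and 31039 S. paradoxus counts. Its S. cerevisiae share of 42.0% and 41.6% was the lowest of the 10 genes, with a log2 ratio of -0.48 ± 0.03 (edgeR adjusted p = 2.04e-29). HMG1, the next enzyme after ERG13, had the opposite direction, with 55307 and 38787 S. cerevisiae counts, against 45841 and 33588. The log2 ratio was 0.24 ± 0.03 (edgeR adjusted p = 5.43e-13). ERG7 was higher by 0.29 ± 0.04 on the log2 scale (27223 and 17687 counts, against 21925 and 14692; edgeR adjusted p = 4.93e-11). ERG11, the enzyme after ERG7, was lower, with 40977 and 30407 S. cerevisiae counts, against 51847 and 38974 S. paradoxus counts. Its share was 44.1% and 43.8%, and its log2 ratio was -0.35 ± 0.03 (edgeR adjusted p = 8.06e-22).

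ERG1 was almost evenly split, with 35116 and 25119 S. cerevisiae counts, against 35085 and 25222 S. paradoxus counts (edgeR adjusted p = 0.956). ERG9 had 30162 and 22514 counts, against 32872 and 22622, a log2 ratio of -0.07 ± 0.03 (edgeR adjusted p = 0.0858). The ratios of ERG9 and of each of the other 8 genes lay on the same side in both hybrid libraries. The 8 had been called from these same libraries, so this is no separate evidence for them. At the 8 genes the libraries differed by at most 1.76 percentage points in the share of the S. cerevisiae allele. When either hybrid library was left out, the spread had to be taken from the parents, and ERG13 and ERG3 kept their calls whichever library was left. The other 6 of the 8 called genes lost theirs. Most calls over all genes were lost in those runs too, so the loss was not particular to the 6. Filters on genomic DNA and simulated reads are stated for NFRs and not for genes, and unequal mapping of alleles at the genes was not tested. Summed over the 10 genes, the S. cerevisiae alleles had 51.8% and 51.5% of the counts. Genes enter this sum by their counts, which depend on an unknown number of sites. The sum therefore does not show whether opposite ratios balanced. The 10 genes together took 0.679% and 0.768% of the counts in UWOPS05_217_3, against 0.728% and 0.771% in CBS432, ranges that overlapped.

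Trans effects, the parental log2 ratio minus the allele log2 ratio, passed at ERG9, ERG1, ERG6 and ERG3. These 4 of 10 genes stand beside 25.8% of all genes by edgeR's quasi-likelihood test. ERG9 had a trans ratio of 0.35 ± 0.09 (edgeR adjusted p = 0.0216) and ERG1 one of -0.34 ± 0.08 (edgeR adjusted p = 0.0165). Neither had a cis effect that passed, and both trans ratios had the sign of the parental ratio. ERG3 had a trans ratio of -0.47 ± 0.08 (edgeR adjusted p = 0.0041) and ERG6 one of -0.43 ± 0.10 (edgeR adjusted p = 0.0166). At both, the trans ratio was opposite in sign to the cis ratio and the parental ratio did not pass. The trans ratio is computed from the same hybrid libraries as the cis ratio, so an error in the allele ratio enters both with opposite signs.

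ERG13 and HMG1 had trans ratios of 0.06 and 0.00, near the median over all genes of 0.07, and ERG7 and ERG2 had -0.13 and 0.12. ERG11 had -0.22 (edgeR adjusted p = 0.0597) and ERG5 -0.21 (0.0969). With TMM scaling of all columns both passed, at -0.30 and -0.28 (edgeR adjusted p = 0.0193 and 0.0304), and in DESeq2 ERG11 passed (adjusted p = 0.0403). That scaling gave 566 positive and 758 negative trans calls over all genes, beside 761 positive and 527 negative with totals. The trans calls rested on the replicate block, which ties parents of the same number. Without it 0 of 10 genes passed in edgeR, with 4 below 0.05 before adjustment, and the adjusted p-values of the 4 genes lay between 0.0817 and 0.157. Leaving out 1 parent library left its partner of the same number alone in its block. Such a run held 1 parental pair and took the spread from the hybrid alleles only. Its number of calls is therefore not comparable with that from all libraries. Leaving out either parent of a number gave the same ratio, at ERG1 -0.40 without replicate 1 and -0.28 without replicate 2. Without hybrid replicate 1 or 2 none of the 10 passed in edgeR, and fewer of all genes did. Haploid parents were set against a diploid hybrid, so ploidy and hybrid state cannot be told apart in the trans ratios.

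**Figure D2:**
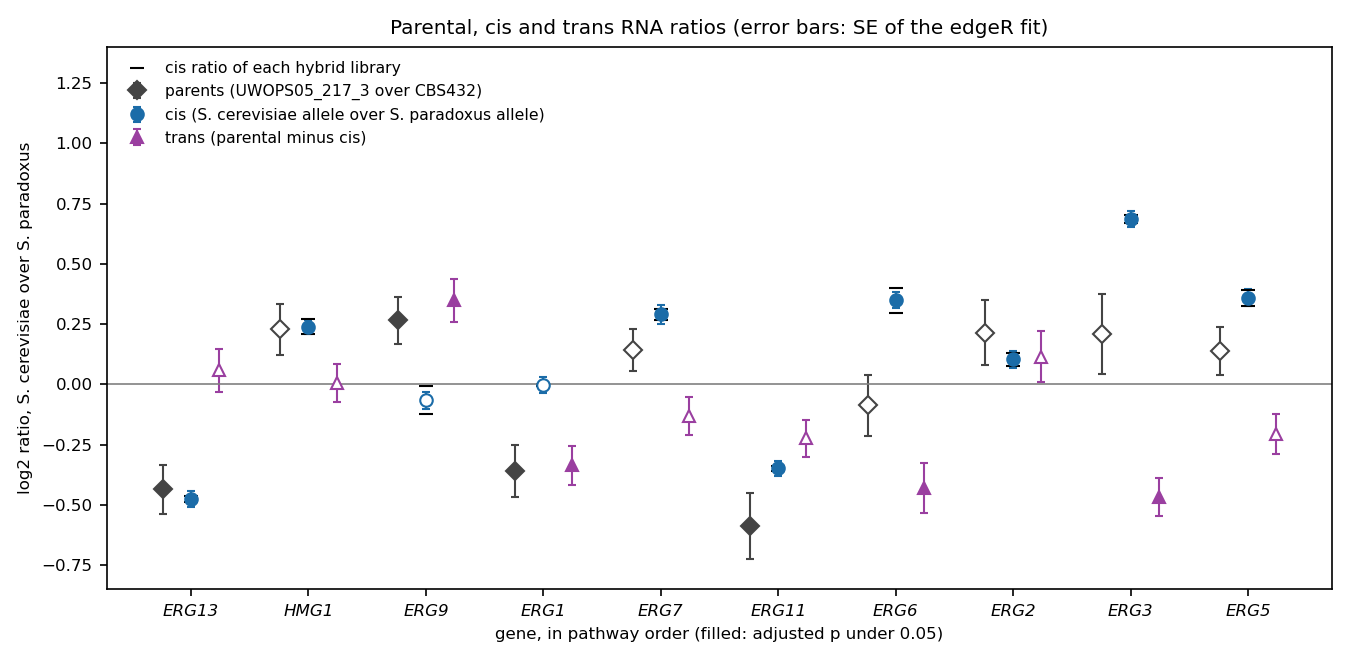
Log2 ratios of RNA counts for the 10 genes in pathway order, between the parents (diamonds), between the alleles of the hybrid (circles) and as trans ratio (triangles), with SE bars. Filled symbols passed at an adjusted p under 0.05, and dashes give the allele ratio of each hybrid library. The cis ratios ran between -0.48 at ERG13 and 0.69 at ERG3.

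The genes lay on 4 chromosomes. On chromosome XIII were ERG13 (19060 to 20535, minus strand), HMG1 (115734 to 118898, minus), ERG6 (251839 to 252990, minus), ERG5 (300869 to 302485, minus) and ERG2 (667537 to 668205, plus). On chromosome VIII were ERG11 (120091 to 121683, minus), ERG7 (239098 to 241293, plus) and ERG9 (484845 to 486179, plus). ERG1 lay on chromosome VII (846933 to 848423, minus) and ERG3 on chromosome XII (253861 to 254958, plus), all spans being coding sequence.

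The 9 NFRs differed in width and in distance from the start codon. The narrowest was that of ERG13, 75 bp on chromosome XIII from 20670 to 20745, with its center 172.5 bp upstream of the start codon. ERG7 had a 127 bp NFR on chromosome VIII from 238799 to 238926, centered 235.5 bp upstream, and HMG1 a 198 bp NFR on chromosome XIII from 118903 to 119101, centered 104 bp upstream. The NFR of ERG9 lay on chromosome VIII from 484582 to 484859, that of ERG11 on chromosome VIII from 121717 to 122060, and that of ERG5 on chromosome XIII from 302438 to 302806. The NFRs of ERG6 (chromosome XIII, 252898 to 253557), ERG2 (chromosome XIII, 666964 to 667298) and ERG3 (chromosome XII, 253197 to 253890) were shared. The ERG6 NFR also overlapped the upstream windows of MIN4 and YAP1, the ERG2 NFR that of RAD14 and the ERG3 NFR that of SPT8, so their counts belong to more than 1 gene. The centers of the ERG2 and ERG3 NFRs lay 406 and 317.5 bp upstream, outside the 300 bp window. The NFRs of ERG9, ERG6, ERG3 and ERG5 reached into the coding sequence. Coordinates are those of the S. cerevisiae genome build sacCer3 as named in the submitters' processing notes.

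In the hybrids, 4 upstream regions carried cis effects on accessibility: those of ERG13, ERG9, ERG7 and ERG2. The S. cerevisiae allele was the more accessible one at ERG9, ERG7 and ERG2 and the less accessible one at ERG13. In the UWOPS05_217_3-CBS432 hybrid 2 of 9 NFRs passed (ERG7 and ERG2, both higher), beside 24.8% of all NFRs by edgeR's quasi-likelihood test. In the DBVPG1373-CBS432 hybrid 4 of 9 passed (3 higher, 1 lower), beside 29.8% of all NFRs. Over all NFRs that passed, 60.9% were higher for the S. cerevisiae allele in the UWOPS05_217_3-CBS432 hybrid and 58.8% in the DBVPG1373-CBS432 hybrid. With TMM factors these shares were 51.7% and 49.1%, while the same NFRs of the 9 passed in the same directions. The median log2 ratio over the 9 NFRs was 0.18 in the UWOPS05_217_3-CBS432 hybrid and 0.33 in the DBVPG1373-CBS432 hybrid, beside 0.09 over all NFRs in each.

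At the ERG7 NFR, the UWOPS05_217_3-CBS432 hybrid held 177 and 175 S. cerevisiae counts, against 54 and 15 S. paradoxus counts. The log2 ratio was 2.54 ± 0.53, or 5.83-fold (SE, n = 2 libraries; edgeR adjusted p = 3.51e-05), the largest among the 9. The libraries differed in size of effect, and the ratio was 1.71 without replicate 2 (edgeR adjusted p = 0.159) and 3.53 without replicate 1 (edgeR adjusted p = 0.00282). The DBVPG1373-CBS432 hybrid had 232 and 183 S. cerevisiae counts at ERG7, against 93 and 82. That ratio was 1.24 ± 0.38 on the log2 scale (edgeR adjusted p = 0.0331).

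The ERG2 NFR had nearly the same ratio in both hybrids. In UWOPS05_217_3-CBS432 it had 593 and 535 S. cerevisiae counts, against 297 and 296 S. paradoxus counts, a log2 ratio of 0.93 ± 0.30 (edgeR adjusted p = 0.013). In DBVPG1373-CBS432 it had 631 and 905 counts, against 375 and 442, a log2 ratio of 0.89 ± 0.23 (edgeR adjusted p = 0.0151). In UWOPS05_217_3-CBS432 the ERG2 call was lost without the library as a block (log2 ratio 0.92, edgeR adjusted p = 0.0594) and when either library was left out (0.283 and 0.230).

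At the ERG13 NFR, the DBVPG1373-CBS432 hybrid had 19 and 36 S. cerevisiae counts, against 98 and 139 S. paradoxus counts. The log2 ratio was -2.14 ± 0.50 (edgeR adjusted p = 0.00928). In UWOPS05_217_3-CBS432 the counts were 55 and 31, against 69 and 57, and the log2 ratio of -0.59 ± 0.58 did not pass (edgeR adjusted p = 0.503). The ERG9 NFR of the DBVPG1373-CBS432 hybrid had 193 and 237 S. cerevisiae counts, against 81 and 37, a log2 ratio of 1.94 ± 0.47 (edgeR adjusted p = 0.0113). Its ratio was 2.67 without replicate 1 and 1.25 without replicate 2. In UWOPS05_217_3-CBS432 the ERG9 NFR had 270 and 158 counts, against 121 and 111, and 0.84 ± 0.43 did not pass (edgeR adjusted p = 0.142). The calls of the DBVPG1373-CBS432 hybrid were lost when either of its libraries was left out and the spread was taken from the parents. Nearly all calls over all NFRs were lost in those runs too, so the loss was not particular to these NFRs. The NFRs of ERG13, ERG9 and ERG7 held at most 270 counts in any hybrid allele, and that of ERG13 at most 139, whereas each of the other 6 NFRs held at least 296.

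The other 5 NFRs, at HMG1, ERG11, ERG6, ERG3 and ERG5, had log2 ratios between -0.17 and 0.53 in the UWOPS05_217_3-CBS432 hybrid and between -0.16 and 0.51 in the DBVPG1373-CBS432 hybrid, and none passed. The ERG6 NFR was the best covered. It had 2151 and 2157 S. cerevisiae counts in UWOPS05_217_3-CBS432, against 2060 and 2043 S. paradoxus counts, a log2 ratio of 0.07 ± 0.19. At ERG3 the S. cerevisiae allele had 729 and 1153 counts in UWOPS05_217_3-CBS432, against 842 and 1262. Its log2 ratios of -0.17 ± 0.23 and, in DBVPG1373-CBS432, -0.16 ± 0.19 did not pass. ERG5 had 0.53 ± 0.29 in UWOPS05_217_3-CBS432 and 0.51 ± 0.20 in DBVPG1373-CBS432 (edgeR adjusted p = 0.166 and 0.0803).

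The allele ratios were also compared between the hybrids, by the interaction of allele and hybrid. None of the 9 NFRs passed in edgeR or DESeq2, none had an unadjusted p under 0.05, and 0.429% of all NFRs passed in edgeR. The difference of log2 ratios, UWOPS05_217_3-CBS432 minus DBVPG1373-CBS432, was 1.55 ± 0.77 at ERG13, 1.30 ± 0.68 at ERG7 and -1.10 ± 0.62 at ERG9, against 0.03 ± 0.36 at ERG2. Differences at ERG13, ERG7 and ERG9 were thus not detected (unadjusted p = 0.0554, 0.0673 and 0.0883 in edgeR, adjusted p between 0.624 and 0.695). The haploid S. cerevisiae strains were compared directly as well, UWOPS05_217_3 over DBVPG1373, and none of the 9 NFRs passed in edgeR or DESeq2 or had an unadjusted p under 0.05, beside 0.114% of all NFRs in edgeR. Their log2 ratios lay between -0.65 at ERG11 and 0.16 at ERG2. Without DBVPG1373 replicate 1 none passed either, but 5 of the 9 had an unadjusted p under 0.05 and 105 of all NFRs passed, beside 4 with all libraries.

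**Figure D3:**
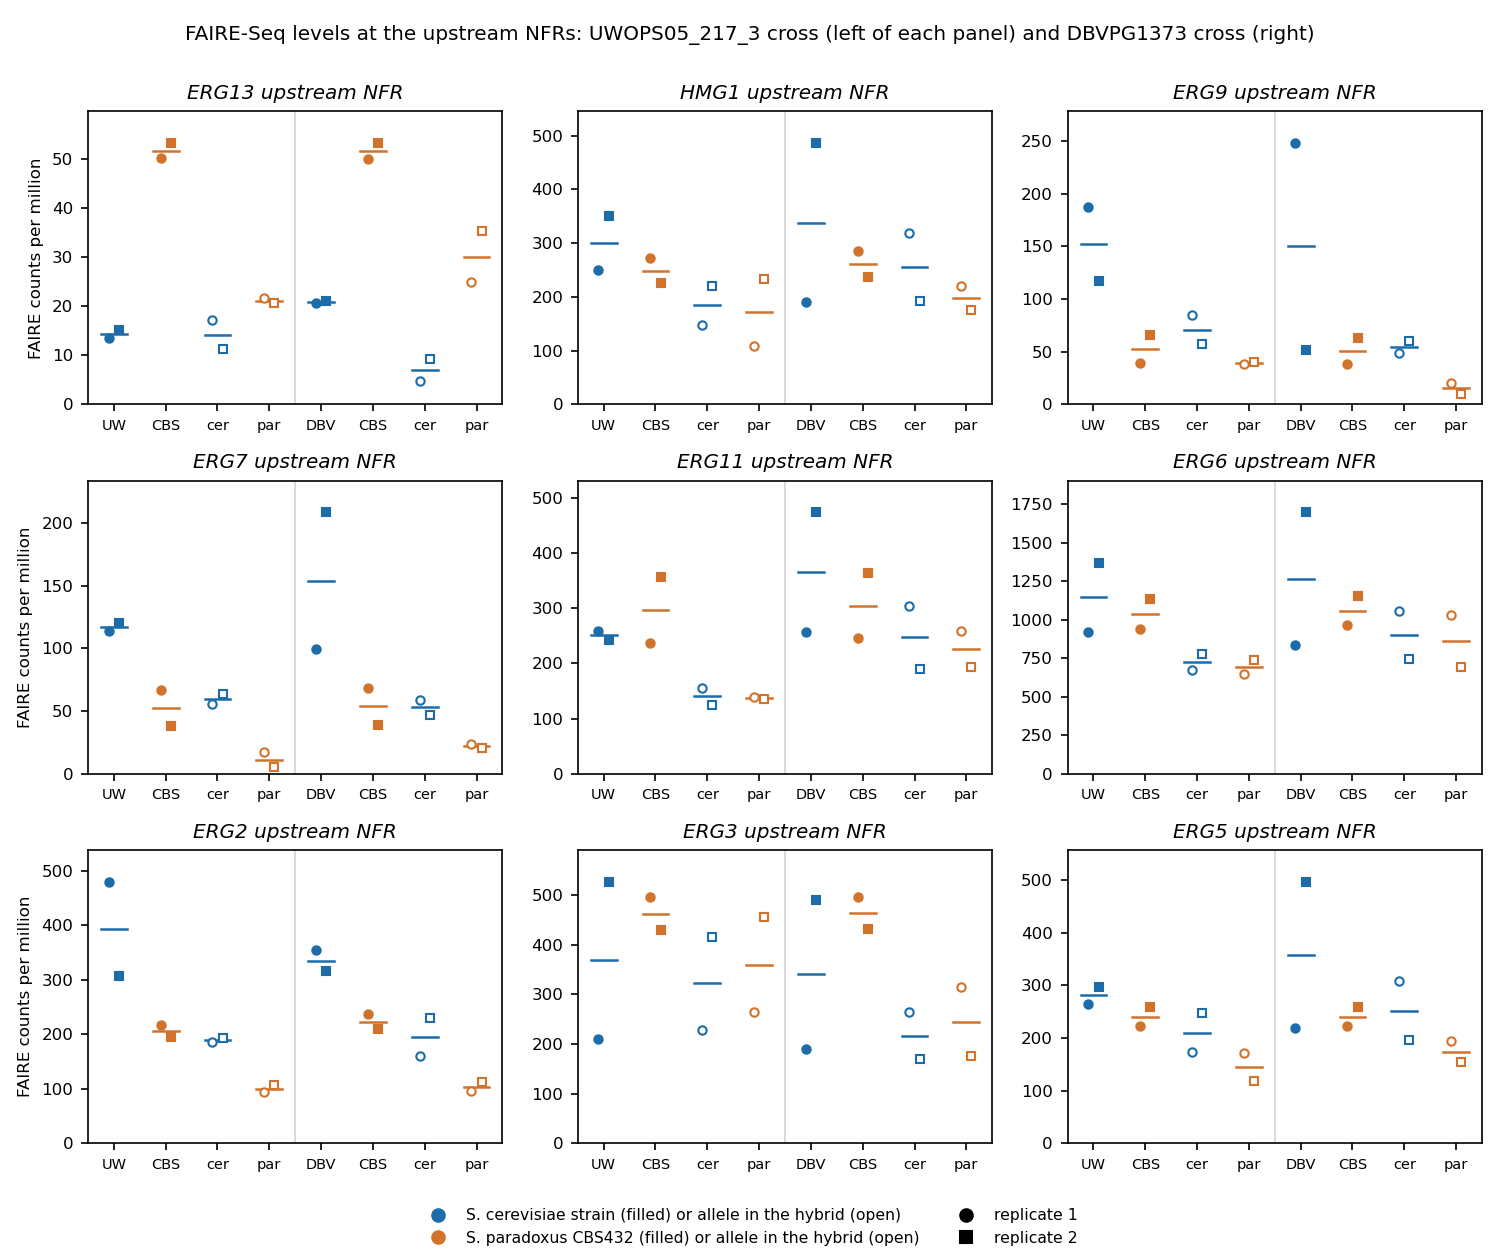
FAIRE levels (CPM) at the 9 upstream NFRs, for haploids (filled) and hybrid alleles (open; cer, S. cerevisiae; par, S. paradoxus) of the UWOPS05_217_3 cross and the DBVPG1373 cross. Points are replicates and lines are means. At ERG13 both S. cerevisiae strains lay below CBS432, and at ERG7 and ERG2 both lay above it.

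Between the haploid parents, the same 4 upstream regions passed for UWOPS05_217_3 over CBS432, 3 higher and 1 lower. They were 4 of 9 NFRs, beside 20.4% of all NFRs by edgeR's quasi-likelihood test. The ERG13 NFR had 13.5 and 15.2 CPM in UWOPS05_217_3, against 50.2 and 53.4 CPM in CBS432, a log2 ratio of -1.82 ± 0.55 (edgeR adjusted p = 0.0216). ERG9 had 187 and 117 CPM in UWOPS05_217_3, against 39.3 and 65.7 CPM in CBS432, a log2 ratio of 1.52 ± 0.42 (edgeR adjusted p = 0.0115). ERG7 had 114 and 120.3 CPM, against 67.0 and 38.3 CPM, a log2 ratio of 1.19 ± 0.42 (edgeR adjusted p = 0.0464). With column totals in place of TMM factors it did not pass (edgeR adjusted p = 0.0733). ERG2 had 480.3 and 307 CPM, against 217.2 and 196 CPM, a log2 ratio of 0.94 ± 0.30 (edgeR adjusted p = 0.0279). At all 4 the strains did not overlap, but the 4 had passed on these same libraries, so this is no separate evidence. Without UWOPS05_217_3 replicate 1 none of the 4 passed (edgeR adjusted p between 0.0935 and 0.235), without CBS432 replicate 1 the calls of ERG9 and ERG2 were lost, and without CBS432 replicate 2 those of ERG13, ERG7 and ERG2. Without UWOPS05_217_3 replicate 2, ERG13 and ERG7 were lost and ERG3 passed at -1.18 (edgeR adjusted p = 0.0261). The ERG3 NFR had 210.3 and 528 CPM in the replicates of this strain. The 5 NFRs that did not pass with all libraries, at HMG1, ERG11, ERG6, ERG3 and ERG5, had log2 ratios between -0.27 and 0.31.

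For DBVPG1373 over CBS432, 0 of 9 NFRs passed in edgeR, 2 had an unadjusted p under 0.05 and 1 passed in DESeq2, beside 8.23% of all NFRs in edgeR. The CBS432 libraries were the same as in the comparison above, so the comparisons are not independent. The ERG7 NFR had 99.2 and 208 CPM in DBVPG1373, against 68.5 and 39.1 CPM in CBS432. Its log2 ratio of 1.65 ± 0.52 did not pass in edgeR (adjusted p = 0.0632) and passed in DESeq2 (adjusted p = 0.0206). ERG9 had 248 and 51.5 CPM in DBVPG1373, against 38.5 and 62.6 CPM in CBS432, so that replicate 2 fell within the CBS432 values. Its log2 ratio was 1.54 ± 0.60 (edgeR adjusted p = 0.123). ERG13 had 20.7 and 21.1 CPM, against 50.1 and 53.4 CPM, a log2 ratio of -1.24 ± 0.60 (edgeR adjusted p = 0.213). The other 6 NFRs had log2 ratios between -0.32 and 0.69. Without DBVPG1373 replicate 1, 3 NFRs passed (HMG1, ERG7 and ERG5), and without replicate 2, ERG9 passed at 2.21 and ERG3 at -1.35.

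No trans effect on accessibility passed at the 9 NFRs. In the UWOPS05_217_3 cross 0 of 9 passed in edgeR and in DESeq2 and none had an unadjusted p under 0.05, beside 0.0572% of all NFRs in edgeR. The same held in the DBVPG1373 cross, beside 0.0% of all NFRs. The members' trans log2 ratios lay between -1.33 (ERG7) and 0.70 (ERG9) in the UWOPS05_217_3 cross, with SEs up to 0.73, and between -0.73 (ERG9) and 0.84 (ERG13) in the DBVPG1373 cross, with SEs up to 0.96. Parents were scaled by column totals, and both alleles of a hybrid library by 1 library total. With this scaling the median over all NFRs was -0.10 in the UWOPS05_217_3 cross and -0.16 in the DBVPG1373 cross. The members' trans ratios are to be read relative to it.

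**Figure D4:**
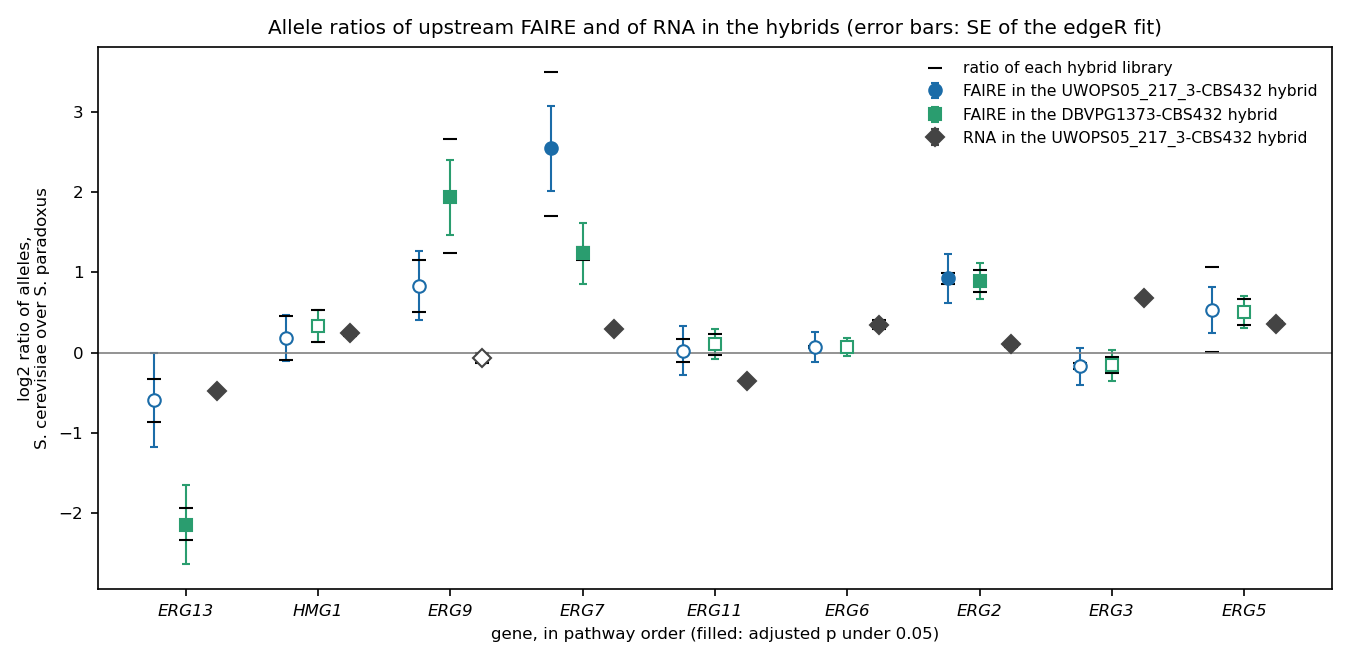
Allele log2 ratios, S. cerevisiae over S. paradoxus, of FAIRE counts at the upstream NFR in each hybrid and of RNA counts of the gene in the UWOPS05_217_3-CBS432 hybrid, in pathway order with SE bars. Filled symbols passed at an adjusted p under 0.05 and dashes are single libraries. ERG3 had an RNA ratio of 0.69 beside FAIRE ratios of -0.17 and -0.16.

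Set side by side, RNA and FAIRE cis ratios had the same sign at 6 of 9 genes in each hybrid, whether or not they passed. The matching shares over all genes with an NFR were not computed. ERG7 and ERG2 were the only genes of the 9 with a cis effect that passed in RNA and in the FAIRE of both hybrids, and the S. cerevisiae allele was the higher one each time. The ERG2 RNA call was lost in DESeq2 and without the library block. Its NFR was centered 406 bp upstream and shared with RAD14. The sizes were unequal. The ERG7 RNA log2 ratio was 0.29 and that of ERG2 was 0.10, beside FAIRE log2 ratios of 1.24 to 2.54 and 0.89 to 0.93. ERG13 was lower for the S. cerevisiae allele in RNA and in the FAIRE of the DBVPG1373-CBS432 hybrid. ERG9 had no RNA cis effect that passed, although its upstream region was higher by 1.94 on the log2 scale in the DBVPG1373-CBS432 hybrid. ERG3, ERG6, ERG11, HMG1 and ERG5 had RNA cis effects that passed and FAIRE ratios that did not. The FAIRE log2 ratios of HMG1 (0.18 and 0.33) and ERG5 (0.53 and 0.51) had the sign of the RNA ratio in both hybrids, as did those of ERG6 (0.07 in each), and those of ERG3 and ERG11 had the opposite sign. RNA was not used for the DBVPG1373 cross, so its FAIRE ratios have no RNA of the same hybrid beside them.

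The rest of the pathway was examined with a list of 14 other genes, 11 of which were in the RNA tables. In cis 9 of the 11 passed, 5 with the S. cerevisiae allele higher and 4 with it lower, beside the 68.6% of all genes. ERG27, the 3-keto sterol reductase that works between ERG11 and ERG2, had the largest ratio on the higher side. Its S. cerevisiae allele had 15001 and 10045 counts, against 8229 and 5059 of the S. paradoxus allele, a log2 ratio of 0.93 ± 0.06 (edgeR adjusted p = 4.37e-34). ERG12, the mevalonate kinase, had the largest on the lower side, with 15007 and 11328 counts, against 24678 and 16673, a log2 ratio of -0.64 ± 0.04 (edgeR adjusted p = 1.60e-29). Between the parents 5 of these 11 passed, 4 higher and 1 lower in UWOPS05_217_3, beside 54.6% of all genes. In trans 4 passed, beside 25.8%. All 4 had a higher parental than allele ratio, as did 761 of the 1288 trans calls over all genes with totals and 566 of 1324 with TMM.

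There were 9 NFRs upstream of these other genes. Between UWOPS05_217_3 and CBS432 3 of them were higher, beside 20.4% of all NFRs that passed in either direction, and between DBVPG1373 and CBS432 2 were higher, beside 8.23%. In cis 2 were higher in the UWOPS05_217_3-CBS432 hybrid and 4 in the DBVPG1373-CBS432 hybrid, beside 24.8% and 29.8% of all NFRs. None was lower in any of these comparisons, and the balance of higher and lower cis calls over all NFRs moved with the scaling, as given above. None passed in trans, between the hybrids or between the S. cerevisiae strains in edgeR. At an unadjusted p under 0.05 there was 1, in the trans comparison of the DBVPG1373 cross.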

How the data were processed

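The authors mapped reads with BWA to strain assemblies and a CBS432 reference, hybrid reads to both genomes together (CASAVA and BWA per the labels, versions not given in the sources used here). They deposited whole-number counts summed over each gene or NFR without indel sites, 1 library or allele per table, with no normalization, so a read over several sites may count more than once. NFRs had passed their genomic DNA and simulated-read filters, which are not stated for genes. CBS432 was counted once for each S. cerevisiae strain.

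Of 32 tables, 24 were used. The 8 RNA tables of the DBVPG1373 cross were left out, because 1890 of their 5066 rows, 7 ergosterol genes among them, held the same value in every table. Of 4995 genes, 4597 matched the RefSeq R64 gene table. Promoter motifs were not searched, since no sequence was used here.

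All features were fitted together by edgeR 4.0.16's quasi-likelihood test in R 4.3.3, with Benjamini-Hochberg adjustment at 0.05. Parents and strains were compared with TMM factors. For cis ratios each hybrid library was a block, and both its alleles shared 1 library size. Trans ratios were the interaction of species and parent or hybrid, scaled by totals and blocked by replicate number. RNA genes needed a mean count of 10. An SE is the log2 ratio over the root of F. DESeq2 1.42.0, other scalings, filters and blocks, and leaving out each library were the alternatives. Replicates of a group differed beyond counting noise. All 10 genes are named, and of other lists the largest cis call in each direction. The regulators UPC2, ECM22 and HAP1 were also named beforehand, and PDR11 is named because it passed in trans. The members and lists were chosen with earlier results of these data known.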

Additional observations from a re-analysis of the deposited data

Results flagged for a closer look

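The RNA log2 ratio differed between the parents and the hybrid at 4 of the 10 genes, by the interaction test in edgeR. The parental minus the allele log2 ratio was 0.35 at ERG9, -0.34 at ERG1, -0.43 at ERG6 and -0.47 at ERG3. At ERG6 and ERG3 the S. cerevisiae share of allele counts in the hybrid was 55.1% to 61.9% while the parental ratio did not pass the test. Without the replicate block none of the 4 passed. Ploidy and hybrid state cannot be told apart in these differences.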

How the results depend on the processing

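None of the ratios of the 10 genes and 9 NFRs that passed changed sign under any alternative run for them. The ratios of the other lists were not recomputed. The number of the 10 genes that passed in RNA was 4 between the parents (2 to 5 when 1 library was left out), 8 in cis (2 when either hybrid library was left out) and 4 in trans (0 to 8). The number of the 9 NFRs that passed between UWOPS05_217_3 and CBS432 was 4 (0 to 3 when 1 library was left out) and between DBVPG1373 and CBS432 it was 0 (0 to 3), with 1 in DESeq2. In cis it was 2 in the UWOPS05_217_3-CBS432 hybrid (0 to 1), with 1 where the NFR center had to lie within 300 bp, and 4 in the DBVPG1373-CBS432 hybrid (0 when either library was left out). Where the NFR center had to lie within 300 bp, the ERG2 and ERG3 NFRs were left out. Then 3 NFRs passed in cis in the DBVPG1373-CBS432 hybrid and 3 between UWOPS05_217_3 and CBS432. In RNA trans, leaving out a parent library left 1 parental pair and took the spread from the hybrid alleles only. Those counts are not comparable with the count from all libraries. A lone hybrid library in cis was assumed to vary like the parents. Most cis calls over all genes and over all NFRs were then lost as well.

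The labels number replicates 1 and 2 in each group and do not say what a number shares. Deviations of same-numbered samples correlated at 0.217 and 0.208 in RNA and between 0.171 and 0.487 in FAIRE, with only 2 numbers. With a replicate block 5 genes passed between the RNA parents (HMG1 was added, edgeR adjusted p = 0.0477) and 2 NFRs between DBVPG1373 and CBS432 (ERG7 at 1.53 and ERG9 at 1.28, edgeR adjusted p = 0.00756 and 0.048), and of all NFRs 736 passed there, beside 288. Between the S. cerevisiae strains the block gave 0 of 9 members and 112 NFRs in all, beside 4, and DESeq2 gave 19. Without the replicate block 0 genes passed in RNA trans (617 of all genes, beside 1288) and 1 NFR in cis in the UWOPS05_217_3-CBS432 hybrid (456 of all NFRs, beside 866). Counts of 15 to 270 per hybrid allele at the NFRs of ERG13, ERG9 and ERG7, and the spread between only 2 libraries per group, both limit those ratios.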

Other observations

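Regulators and accessory genes of sterol synthesis formed a second list of 13 genes, 11 of them in the RNA tables. Between the parents 10 of 11 passed in edgeR, 3 higher and 7 lower in UWOPS05_217_3 than in CBS432, beside 54.6% of all genes. In cis 9 passed, 3 with the S. cerevisiae allele higher and 6 with it lower. Of all genes 68.6% passed in cis, 31.8% higher and 36.7% lower. The median cis log2 ratio was -0.29 over the 11 genes and -0.03 over all genes. ARE2, a sterol acyltransferase that stores sterols as esters, had the largest ratio on the lower side. Its S. cerevisiae allele had 17257 and 13247 counts, against 27813 and 21397 of the S. paradoxus allele, a log2 ratio of -0.69 ± 0.04 (edgeR adjusted p = 2.19e-36). The ARE2 NFR had the opposite direction, with cis log2 ratios of 0.53 ± 0.25 in UWOPS05_217_3-CBS432 (edgeR adjusted p = 0.0992) and 0.73 ± 0.19 in DBVPG1373-CBS432 (0.0146). UPC2, an activator of the pathway, had 65.3 and 60.7 CPM in UWOPS05_217_3, against 92.0 and 98.6 CPM in CBS432. Its parental log2 ratio was -0.61 ± 0.10 (edgeR adjusted p = 0.00111) and its cis log2 ratio -0.33 ± 0.09 (edgeR adjusted p = 0.000345). ECM22, its paralog, did not pass in cis, with 0.09 ± 0.09 (edgeR adjusted p = 0.339).

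ROX1, a repressor of hypoxic genes, had cis and trans ratios of opposite sign. It had 335 and 395 CPM in UWOPS05_217_3, against 448 and 579 CPM in CBS432, while its S. cerevisiae allele in the hybrid had 24951 and 18231 counts, against 16568 and 15139. The cis log2 ratio was 0.43 ± 0.04 (edgeR adjusted p = 1.15e-17) and the trans log2 ratio -0.91 ± 0.11 (edgeR adjusted p = 0.000695). In trans 2 of the 11 passed, beside 25.8% of all genes. These were ROX1 and PDR11, a sterol importer, the latter at 0.33 ± 0.09 (edgeR adjusted p = 0.0306). HAP1, a heme-dependent activator, was measured by FAIRE only, and its cis log2 ratios of 0.44 and 0.22 did not pass in the UWOPS05_217_3-CBS432 and DBVPG1373-CBS432 hybrids. In the same order, the FAIRE cis log2 ratios were 0.15 and 0.34 at UPC2 and -0.94 and -1.08 at ECM22, and none passed. Of the 9 NFRs of this list, 1 passed in each parental comparison, 1 in cis in the UWOPS05_217_3-CBS432 hybrid and 3 in the DBVPG1373-CBS432 hybrid, each with S. cerevisiae higher, and none in the other comparisons. Over all NFRs the shares that passed were 20.4% and 8.23% in the parental comparisons of UWOPS05_217_3 and DBVPG1373, and 24.8% and 29.8% in cis.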
